A study of Mus musculus with 18 samples.

Results

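Mouse pluripotent cells express a set of nuclear and germline regulators that fibroblasts hold at a far lower level. Among the probe sets that were at least 10-fold higher than in mouse embryonic fibroblasts (MEFs) on each of the 15 pluripotent arrays, those whose gene symbol starts with one of a fixed set of regulator prefixes were taken, such as Zfp, Zic, Dnmt, Tet, Tdrd or Trim. This gave 46 probe sets of 33 genes, out of 477 probe sets in the list of higher probe sets and 45037 on the array. The rule left out Ddx3y, and also Pou5f1, Sox2 and Zfp42, which match a prefix and are in that list. The choice used the distance from MEFs, so that distance is given as a description with no test. It also bounds what can be seen, since a gene that a single clone had lost would not be in the list. The comparisons among the pluripotent groups were not used to choose the genes.

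RNA had been measured on 18 Affymetrix mouse expression arrays. They held 3 MEF samples, 3 mESC clones and 4 clones each of 3 groups of induced pluripotent stem cells (iPSCs). The MEFs came from E13.5 embryos and were used within a few passages. The iPSCs were made from such MEFs with PiggyBac vectors that express their cargo under doxycycline, at 1.5 µg/mL for 21 days on feeder cells. OSKM clones received Oct4, Sox2, Klf4 and c-Myc. OE + EpEX clones received Oct4 and EpCAM, an epithelial adhesion molecule, and were treated with EpEX, its extracellular part. KE + EpEX clones received Klf4 and EpCAM and the same EpEX treatment. Every sample has the same strain label. It names B6.Cg-Gt (ROSA) 26Sortm1 (rtTA*M2), with the suffix Jae/J, which supplies the doxycycline-responsive transactivator. It also names B6.129S4-POU5f1tm2Jae/J, the Oct4-GFP reporter of the study. No mESC or OSKM sample with EpEX was present, so EpEX cannot be told apart from the factors it was given with. In the labels the MEF arrays are biological replicates, but the design text mentions 1 primary culture.

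Each value is a log2 level relative to the median of its probe set over the 18 arrays. A value of 0 therefore says nothing about the amount of RNA, and levels of different probe sets cannot be compared. In such bulk RNA, fewer expressing cells and less RNA per cell cannot be told apart. The 8 markers of pluripotent cells were each 4.93 to 9.84 log2 units higher in the pluripotent arrays than in MEFs. The 12 fibroblast genes with a named probe set, of 17 listed, differed from MEFs by -3.84 to -7.70 log2 units. Probe sets are named only in the authors' lists of those higher or lower than in MEFs. The direction of these marker differences was thus fixed in advance, and they do not test cell identity. The 3 MEF arrays did not match closely. MEF 1 lay at least 1 log2 unit above the mean of MEF 2 and MEF 3 for 9 of the 46 probe sets and at least 1 unit below it for 4, while MEF 2 and MEF 3 were within 1 unit of each other for the whole set. The spread of all probe sets was wider on the mESC arrays (SD 0.393 to 0.422) than on the OE + EpEX, KE + EpEX and OSKM arrays (SD 0.193 to 0.322).

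As background, pluripotent cells of the early embryo keep transcription factors of the Zic, Klf and Tbx families active, use Dnmt3b with its cofactor Dnmt3l to lay down DNA methylation, and use Tet1 to oxidise it. Many germline genes, among them those of the piRNA pathway that silences transposons, are kept off in somatic cells by promoter DNA methylation and by Polycomb-type repressor complexes. Some of these genes are transcribed in cultured mouse pluripotent cells as well.

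By role, the set held 13 transcription factor genes with 18 probe sets. Among these were Zic2, Zic5, Klf5, Tbx3, Foxh1, Mycn, Mybl2, Tcfl5, Zfp264, Zfp462, Zfp936 and Zfp961. DNA methylation was represented by Dnmt3b, Dnmt3l and Tet1 with 6 probe sets, and chromatin by Hells, Jarid2 and Morc1 with 5. The germline and RNA group had 9 genes and 12 probe sets, for Dazl, Ddx4, Mael, Piwil2, Rnf17, Stk31, Sycp3, Tdrd12 and Tex19.1. The remaining 5 genes, with 1 probe set each, were Tcl1, Tdh, Trim6, Trim71 and Triml1. Of the 33 genes, 22 had 1 probe set and 11 had several.

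Promoter sequence is shown for the genes that differed most from mESCs and for Mael, a germline gene whose promoter window held 3 of the motifs searched. Those of the germline genes Ddx4 and Sycp3 held the same 3, and that of Dazl held none. Mael is therefore an example and does not stand for the germline genes. The sequences are from RefSeq (GRCm38.p6), run from 250 bases before to 50 after an annotated start and are written 5′ to 3′ along the gene's strand. Capitals mark matches, on either strand, to the E-box CACGTG, the E2F-type motif TCCCGC, the octamer bound by Oct factors and the GC box CCGCCC. The E2F-type motif and the GC box share letters and can overlap.
Stk31, chr6:49395289-49395588, plus strand: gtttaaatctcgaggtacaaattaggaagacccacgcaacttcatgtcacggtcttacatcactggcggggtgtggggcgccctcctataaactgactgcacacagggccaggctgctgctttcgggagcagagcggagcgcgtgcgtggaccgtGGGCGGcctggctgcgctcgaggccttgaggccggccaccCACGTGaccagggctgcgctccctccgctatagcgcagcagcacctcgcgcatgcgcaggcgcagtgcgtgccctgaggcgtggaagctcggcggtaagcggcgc
Dnmt3b, chr2:153649199-153649498, plus strand: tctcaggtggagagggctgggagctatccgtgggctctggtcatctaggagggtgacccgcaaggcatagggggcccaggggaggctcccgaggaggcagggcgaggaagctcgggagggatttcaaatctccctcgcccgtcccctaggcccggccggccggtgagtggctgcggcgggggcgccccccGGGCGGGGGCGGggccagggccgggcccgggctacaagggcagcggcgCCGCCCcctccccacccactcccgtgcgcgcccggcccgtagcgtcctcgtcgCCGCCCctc
Triml1, chr8:43141437-43141736, minus strand: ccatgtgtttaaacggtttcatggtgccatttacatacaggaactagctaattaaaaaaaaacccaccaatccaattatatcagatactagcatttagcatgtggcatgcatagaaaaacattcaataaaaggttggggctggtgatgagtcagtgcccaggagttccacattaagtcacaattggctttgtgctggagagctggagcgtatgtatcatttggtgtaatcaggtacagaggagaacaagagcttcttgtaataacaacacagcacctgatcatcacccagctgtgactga
Mael, chr1:166238695-166238994, minus strand: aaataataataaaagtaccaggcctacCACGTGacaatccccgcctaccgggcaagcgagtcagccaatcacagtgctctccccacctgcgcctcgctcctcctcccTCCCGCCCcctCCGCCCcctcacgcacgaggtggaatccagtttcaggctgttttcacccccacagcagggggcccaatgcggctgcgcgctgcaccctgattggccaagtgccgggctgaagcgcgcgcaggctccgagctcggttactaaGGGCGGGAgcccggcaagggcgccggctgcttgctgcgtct
The Stk31 window held 1 E-box and 1 GC box, and the Dnmt3b window 4 GC boxes. The Triml1 window held none of the 4 motifs and 2 CG dinucleotides, against 29 in the Stk31 window and 30 in that of Dnmt3b. Stk31 has 2 annotated windows, of which the first is shown.

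A promoter window was found for 22 of the 33 genes. At least 1 E-box stood in 5 of the 22 (22.7%), against 8.09% of the 27025 genes with a window. The 5 were Ddx4, Dnmt3l, Mael, Stk31 and Sycp3, and 4 of them belong to the 7 germline genes with a window. The E2F-type motif stood in 9 of the 22 (40.9%, against 22.1% of all genes), the GC box in 17 (77.3%, against 38.2%) and the octamer in 0 (against 1.97%). The median number of CG dinucleotides was 18 for the 22 genes and 8 for all. These are counts of letters in a fixed window, and genes with several annotated starts had more than 1 chance of a match.

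In MEFs, the 46 probe sets lay on average between 3.86 and 8.20 log2 units below the pluripotent arrays. These distances cannot be ranked between genes, since detection in MEFs is unknown and probe sets of 1 gene could differ in them. Dazl, an RNA-binding protein of germ cells, lay 8.20 log2 units above MEFs by 1419542_at and 6.58 by 1449502_at. The former read -8.27, -8.07 and -8.16 in the MEF arrays and 0.40, 0.35 and 0.34 in mESCs. Morc1, a chromatin protein that silences transposons in the male germline, read -7.93, -8.11 and -8.36 in MEFs and 0.07, 0.18 and 0.18 in mESCs. Zfp264, a zinc-finger gene, lay 3.86 log2 units above MEFs, with -3.99, -3.82 and -3.62 in MEFs and values between -0.22 and 0.35 in the 15 pluripotent arrays.

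For some genes the size of this distance came mainly from MEF 2 and MEF 3. Tcfl5, a basic helix-loop-helix factor, read -0.93 in MEF 1 but -5.71 and -5.89 in the other MEF arrays. Zfp462, a zinc-finger factor, read -2.45, -6.32 and -6.59 by 1456789_at and -1.41, -5.32 and -4.85 by 1439106_at. Tbx3, a T-box factor, was higher in MEF 1 by 3.19 and 2.74 log2 units and Klf5, a Krüppel-like factor, by 2.34. Tet1 went the other way with 1455425_at, at -7.62 in MEF 1 and -5.30 and -4.80 in the others. With MEF 1 alone as the reference, 36 of the 46 probe sets were 10-fold higher on each pluripotent array, and with MEF 2 or MEF 3 alone 45 were. Of the whole list of 477, 309 were with MEF 1 alone, 456 with MEF 2 and 458 with MEF 3. The difference of MEF 1 was thus not particular to the members. The members just inside the 10-fold limit were Tbx3 1437479_x_at, with a lowest ratio of 10.2, Rnf17 1459275_at (10.5) and Tet1 1419896_at (10.7). The nearest probe sets outside it reached 9.97, 9.96 and 9.96.

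**Figure D1:**
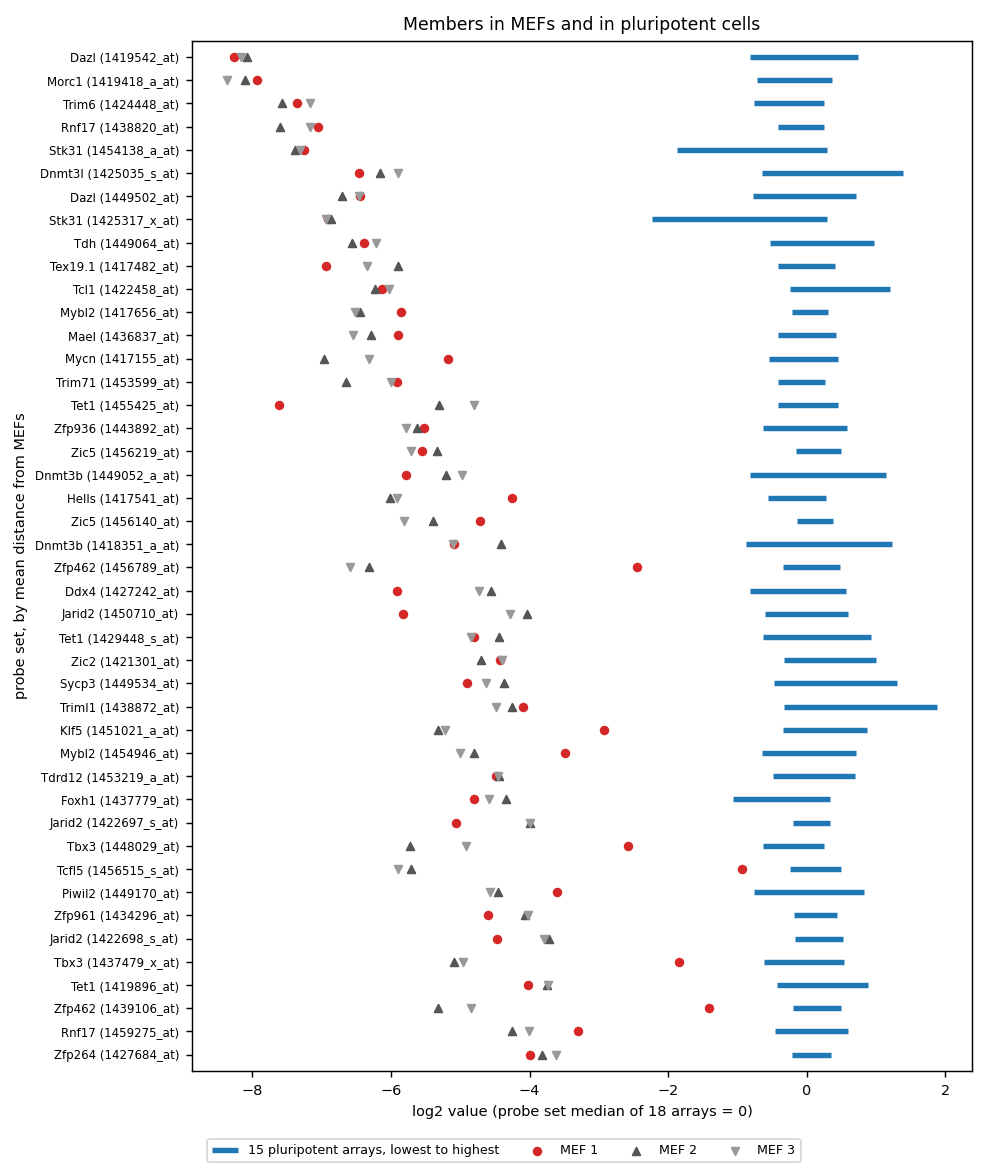
Members in MEFs and pluripotent cells. Each row is 1 of 44 probe sets, ordered by its mean distance from MEFs. Symbols give the log2 values of the 3 MEF arrays and blue bars the range over the 15 pluripotent arrays. MEF 1 stands to the right of MEF 2 and MEF 3 for Tcfl5, both Zfp462 probe sets, both Tbx3 probe sets and Klf5.

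The first question was whether these regulators reached the mESC level in the iPSCs. Differences were tested with limma on the 15 pluripotent arrays. A probe set was called at an adjusted p under 0.05 and a difference of at least 2-fold. Across the mean of the 3 iPSC groups, 3 of the 46 probe sets were called higher than in mESCs and 1 lower, against 1.94% higher and 1.61% lower among all 45037. OE + EpEX had 4 higher and 1 lower (all probe sets, 2.06% and 1.37%). KE + EpEX had 2 and 1 (1.97% and 1.92%), and OSKM had 5 and 1 (1.82% and 1.9%). All called members came from 4 genes, Stk31, Dnmt3b, Dnmt3l and Triml1. These comparisons share the 3 mESC arrays.

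With the adjusted p alone, 9 of 46 members were higher and 3 lower in the iPSC mean (all probe sets, 8.31% and 11.9%). OE + EpEX had 7 higher and 4 lower (6.38% and 7.85%), KE + EpEX 7 and 3 (6.63% and 10%) and OSKM 12 and 2 (7.03% and 9.95%). At least 1 of the 3 iPSC groups passed for 19 of the 46 probe sets, of 15 genes, against 24.2% of all probe sets, and none passed for the other 27. The median difference of the members was 0.00 for the iPSC mean (all probe sets, -0.03). OE + EpEX had -0.02 (-0.05), KE + EpEX -0.05 (-0.02) and OSKM 0.11 (-0.02). Among the 431 other probe sets of the same list, 82 were higher and 97 lower in the iPSC mean by the adjusted p alone (41.5%, against 26.1% of the members), with a median of -0.05. Of these, 24 and 17 were called at 2-fold.

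**Figure D2:**
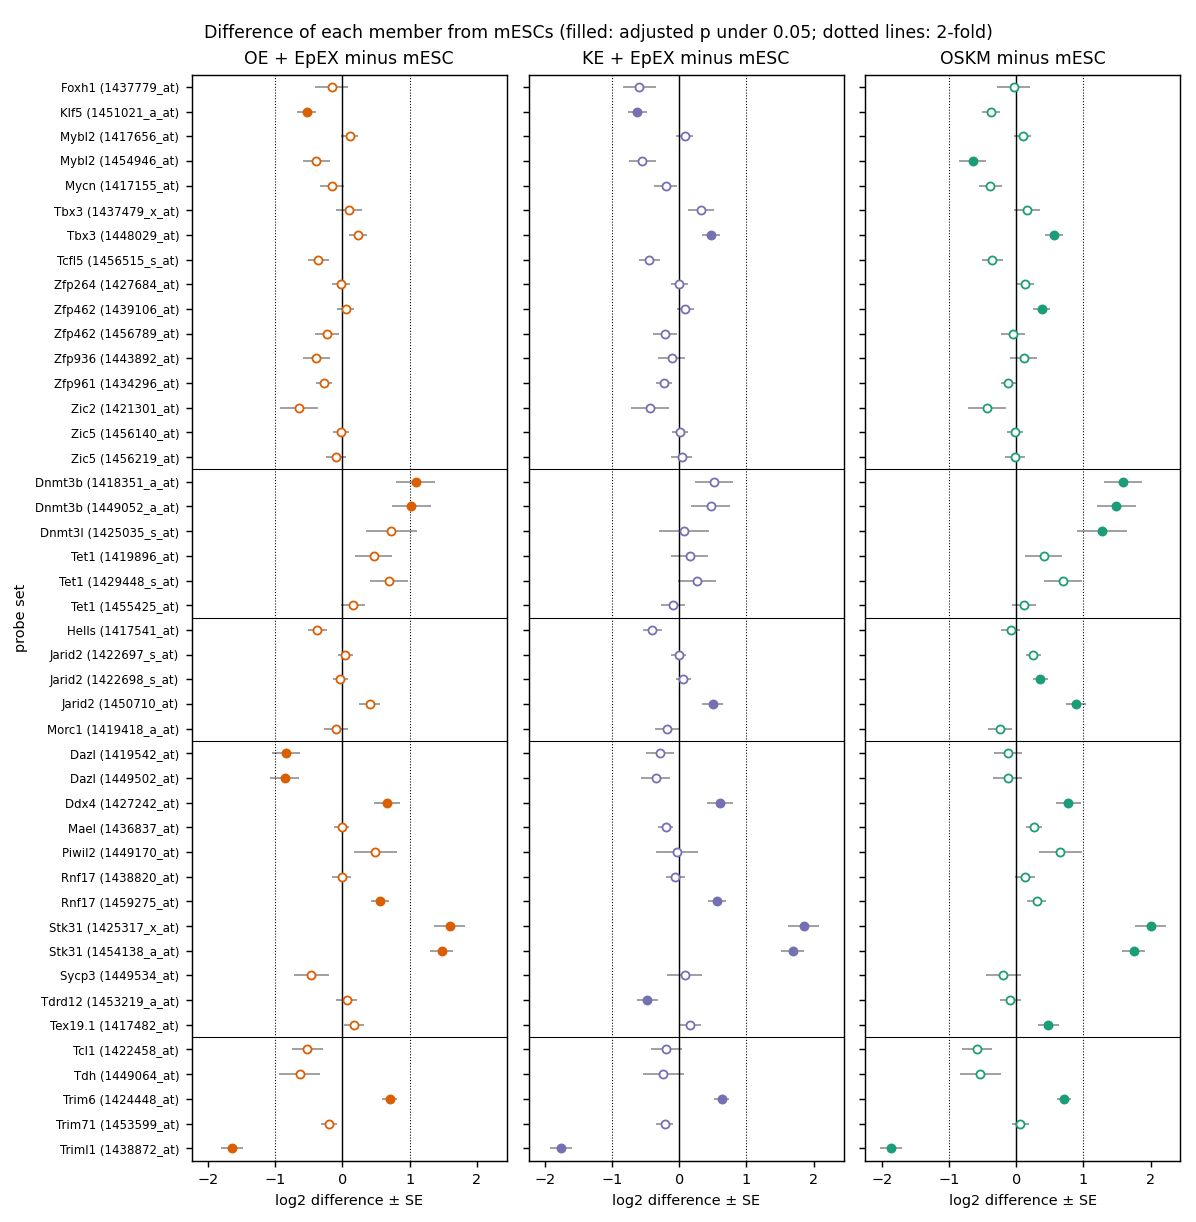
Differences of 44 probe sets from mESCs. Points are limma log2 differences with their SE for OE + EpEX, KE + EpEX and OSKM, filled where the adjusted p was under 0.05, with dotted lines at 2-fold. Stk31 stands at 1.48 to 2.0 and Triml1 at -1.65 to -1.86 in the 3 panels, and most other members lie within 2-fold.

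Stk31, a kinase-like protein with a Tudor domain known from the testis, was the member most raised over mESCs. By 1425317_x_at it read -1.82, -1.40 and -2.23 in the mESC clones. The OE + EpEX clones read -0.03, 0.09, -0.97 and 0.03, the KE + EpEX clones 0.16, 0.13, 0.18 and -0.31, and the OSKM clones 0.29, 0.15, 0.18 and 0.13. Thus each of the 12 iPSC clones lay above each mESC clone, and OE + EpEX 3 was the lowest of them. The difference from mESCs was 1.59 ± 0.23 (log2, SE) for OE + EpEX (3.02-fold, adjusted p = 0.000264). It was 1.85 ± 0.23 for KE + EpEX (3.61-fold, adjusted p = 6.17e-05) and 2.0 ± 0.23 for OSKM (adjusted p = 3.17e-05). In MEFs the probe set read -6.91, -6.86 and -6.93, so mESCs were far above fibroblasts too.

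The other Stk31 probe set, 1454138_a_at, followed it closely over the 15 arrays, with a largest gap of 0.36. It read -1.53, -1.40 and -1.87 in mESCs, -0.01, 0.19, -0.67 and 0.03 in OE + EpEX, 0.11, 0.23, 0.14 and -0.11 in KE + EpEX, and 0.29, 0.14, 0.17 and 0.01 in OSKM. The differences were 1.48 ± 0.17, 1.69 ± 0.17 and 1.75 ± 0.17 (adjusted p = 3.44e-05, 9.14e-06 and 6.45e-06). Quantile normalization of the arrays removes the wider spread of the mESC arrays. The values are centred over 18 arrays, 12 of them iPSCs, so that spread can itself hold real differences from iPSCs. This scaling can shrink such differences and cannot tell them from a technical spread. With it, the OE + EpEX differences fell to 0.77 by both probe sets and were no longer called (adjusted p = 0.0631 and 0.0202). Those of KE + EpEX fell to 1.05 and 1.00 and those of OSKM to 1.23 and 1.09, which were still called.

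Triml1, a member of the tripartite motif family, showed the opposite pattern. It read 1.72, 1.88 and 1.71 in mESCs. The OE + EpEX clones read -0.04, -0.20, 0.62 and 0.09, the KE + EpEX clones 0.23, 0.04, -0.33 and 0.10, and the OSKM clones 0.04, -0.08, -0.07 and -0.28. No iPSC clone overlapped with mESCs, and the values of the 3 iPSC groups overlapped with one another. The log2 difference was -1.65 ± 0.17 in OE + EpEX (3.14-fold lower, adjusted p = 9.87e-06). It was -1.76 ± 0.17 for KE + EpEX (3.38-fold, adjusted p = 4.84e-06) and -1.86 ± 0.17 for OSKM (3.64-fold, adjusted p = 2.56e-06). Its MEF values were -4.09, -4.26 and -4.48. Trim6, a ubiquitin ligase of the wider family, moved the other way. It read -0.62, -0.45 and -0.77 in mESCs, 0.22, 0.17, -0.17 and 0.14 in OE + EpEX, 0.14, 0.05, -0.04 and -0.08 in KE + EpEX, and 0.25, 0.05, 0.06 and 0.04 in OSKM. It was 0.70 ± 0.11, 0.63 ± 0.11 and 0.71 ± 0.11 log2 units higher than in mESCs (adjusted p = 0.000429, 0.000855 and 0.000318), under the 2-fold limit. Trim71, an RNA-binding regulator of early development, did not pass in any group.

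**Figure D3:**
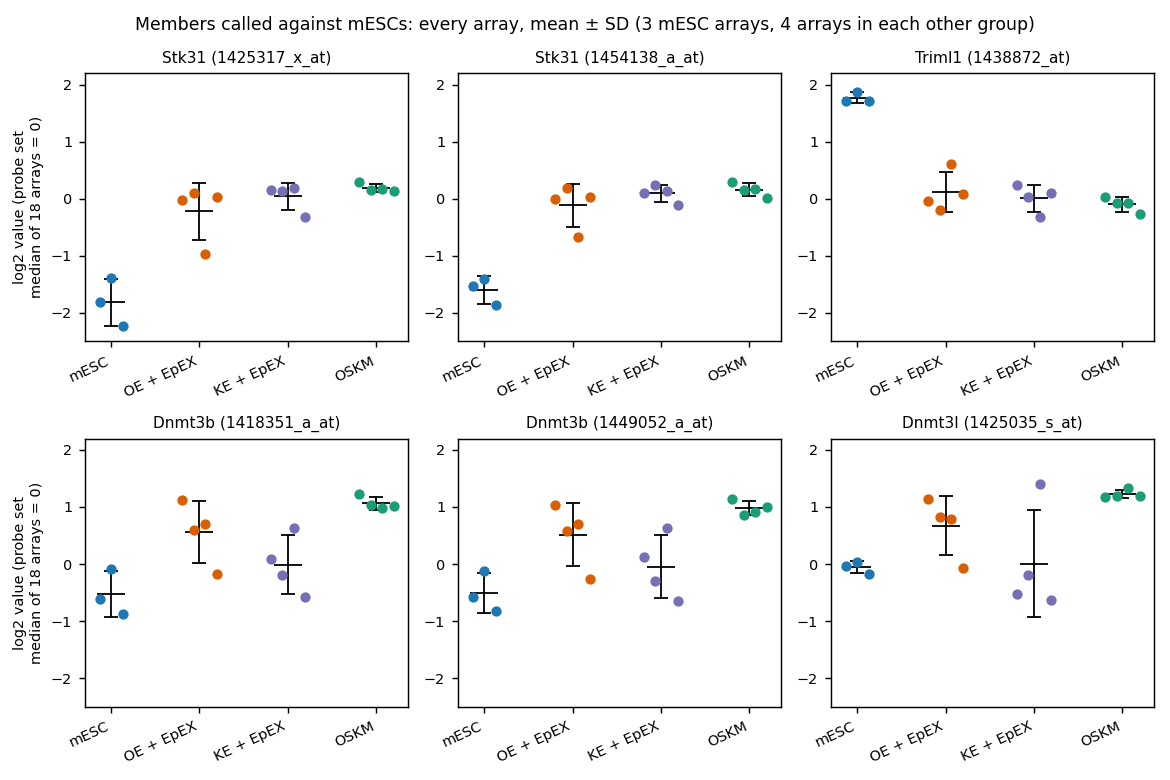
Called members on every pluripotent array. Points are log2 values of single arrays, black bars mean ± SD (3 mESC arrays and 4 in each iPSC group). For Stk31 and Triml1 the iPSC groups stand apart from mESCs on the opposite sides, whereas for Dnmt3b and Dnmt3l the OE + EpEX and KE + EpEX clones spread widely and the OSKM clones lie close together, above mESCs.

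Dnmt3b, the de novo DNA methyltransferase of pluripotent cells, separated OSKM from mESCs and divided the EpEX clones. By 1418351_a_at it read -0.61, -0.09 and -0.88 in mESCs and 1.23, 1.03, 0.97 and 1.01 in OSKM. The OE + EpEX clones read 1.12, 0.59, 0.71 and -0.18, and the KE + EpEX clones 0.09, -0.20, 0.64 and -0.57. OE + EpEX 4 and KE + EpEX 2 and 4 were thus within the mESC range, and no KE + EpEX clone reached the OSKM values. The difference from mESCs was 1.59 ± 0.29 in OSKM (3.01-fold, adjusted p = 0.00126), 1.09 ± 0.29 in OE + EpEX (2.13-fold, adjusted p = 0.0188) and 0.52 ± 0.29 in KE + EpEX (adjusted p = 0.275). The OE + EpEX call rested on single arrays. Without OE + EpEX 1 the difference was 0.90 (adjusted p = 0.0601), without mESC 1 it was 1.04 (adjusted p = 0.0663) and without mESC 3 it was 0.91 (adjusted p = 0.102). After quantile normalization it was 1.03 (adjusted p = 0.0529).

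The other Dnmt3b probe set, 1449052_a_at, read -0.58, -0.13 and -0.82 in mESCs, 1.04, 0.58, 0.70 and -0.26 in OE + EpEX, 0.13, -0.29, 0.63 and -0.65 in KE + EpEX, and 1.14, 0.87, 0.91 and 1.00 in OSKM. Its gap to the first was at most 0.16. It differed from mESCs by 1.03 ± 0.29 in OE + EpEX (adjusted p = 0.0285) and by 1.49 ± 0.29 in OSKM (adjusted p = 0.00234). The OE + EpEX call was lost without mESC 1 or 3 or without OE + EpEX 1, 2 or 3 (adjusted p = 0.0534 to 0.134).

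Dnmt3l, the catalytically inactive partner of the de novo enzymes, behaved alike among the clones. It read -0.04, 0.04 and -0.17 in mESCs and 1.18, 1.20, 1.33 and 1.20 in OSKM. The OE + EpEX clones read 1.14, 0.82, 0.79 and -0.06, and the KE + EpEX clones -0.52, -0.20, 1.40 and -0.64. KE + EpEX 3 was the single KE + EpEX clone at the OSKM level, and the other KE + EpEX clones lay below each mESC clone. OSKM was 1.28 ± 0.37 log2 units above mESCs (2.43-fold, adjusted p = 0.0268), although the OSKM and mESC arrays were each close together (SD 0.07 and 0.11). The SE reflects the KE + EpEX spread (SD 0.94), since 1 error was fitted over the groups, and without KE + EpEX 3 the adjusted p was 0.000544. Leaving out any single mESC or OSKM array raised the adjusted p to between 0.0513 and 0.094, with differences of 1.23 to 1.33. After quantile normalization the difference was 2.12 (adjusted p = 0.00546).

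Tet1, which oxidises methylated cytosine, had 3 probe sets. By 1419896_at it read 0.11, -0.21 and -0.30 in mESCs, 0.65, 0.17, 0.88 and -0.38 in OE + EpEX, -0.42, -0.16, -0.11 and 0.76 in KE + EpEX, and 0.43, 0.35, 0.14 and 0.19 in OSKM. The groups overlapped, and none of the 3 probe sets passed against mESCs in any group. From a list of other genes of DNA methylation, Uhrf1 and Dppa3 had named probe sets, 3 in all. Uhrf1, which recruits the maintenance methyltransferase, was slightly lower by 1 probe set in OE + EpEX and KE + EpEX (-0.27 ± 0.08 and -0.34 ± 0.08, adjusted p = 0.0343 and 0.0077). Dppa3, which protects against demethylation in the zygote, was 1.42 ± 0.42 log2 units higher than mESCs in KE + EpEX (adjusted p = 0.0291).

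Among the 3 chromatin genes, Jarid2, a component of Polycomb repressive complex PRC2, was the one that passed. By 1422698_s_at it read -0.06, 0.21 and -0.16 in mESCs, and 0.52, 0.32, 0.32 and 0.26 in OSKM, without overlap. The OE + EpEX clones read between -0.13 and 0.07 and the KE + EpEX clones between -0.07 and 0.30. The OSKM difference was 0.36 ± 0.11 (adjusted p = 0.0369). By 1450710_at Jarid2 was 0.89 ± 0.16 higher than mESCs in OSKM (adjusted p = 0.000971) and 0.50 ± 0.16 in KE + EpEX (adjusted p = 0.0394), whereas 1422697_s_at did not pass in any group. The 3 probe sets differed from one another by up to 0.62 on single arrays. Morc1 and Hells, a chromatin-remodelling helicase required for DNA methylation, did not pass in any group. Of 18 other Polycomb genes listed, Ezh2, Mtf2 and Pcgf6 had named probe sets, 6 in all. Of these, 1 Mtf2 probe set was lower than in mESCs in OSKM (-0.48 ± 0.12, adjusted p = 0.0106) and no other passed.

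In the germline and RNA group, 8 of the 12 probe sets, of 6 of the 9 genes, passed against mESCs in at least 1 iPSC group, where 24.2% of all probe sets did. That share was 50% for DNA methylation, 40% for chromatin and 40% for the remaining genes. By group, 50%, 41.7% and 33.3% of the germline and RNA probe sets passed in OE + EpEX, KE + EpEX and OSKM. Of the 431 other probe sets of the list, 30.2%, 36.7% and 33.9% did. In the iPSC mean the shares were 33.3% and 41.5%, so a high share was not particular to germline genes. Beside Stk31, Ddx4, the Vasa helicase of germ cells, was higher by 0.78 ± 0.19 in OSKM (adjusted p = 0.00972), 0.66 ± 0.19 in OE + EpEX (adjusted p = 0.0295) and 0.60 ± 0.19 in KE + EpEX (adjusted p = 0.0407). Rnf17, a Tudor domain protein of spermatids, was higher by 1459275_at in OE + EpEX and KE + EpEX (0.56 ± 0.14 in both, adjusted p = 0.0141 and 0.0113). That probe set read -0.16, -0.46 and -0.34 in mESCs, 0.25, 0.39, -0.03 and 0.34 in OE + EpEX, 0.05, 0.29, 0.03 and 0.60 in KE + EpEX, and 0.04, -0.14, 0.14 and -0.10 in OSKM. The other Rnf17 probe set, 1438820_at, did not pass in any group, and the pair did not vary together over the 15 arrays. Tex19.1, which restrains retrotransposons in germ cells, was higher in OSKM (0.48 ± 0.15, adjusted p = 0.044). Tdrd12, of the piRNA pathway, was lower in KE + EpEX (-0.48 ± 0.15, adjusted p = 0.0452).

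Dazl was the germline gene that was lower in OE + EpEX. By 1419542_at the OE + EpEX clones read -0.61, -0.38, -0.81 and -0.11, below the mESC values of 0.40, 0.35 and 0.34 and below the OSKM values of 0.43, 0.13, 0.20 and 0.21. The KE + EpEX clones read -0.10, -0.45, 0.74 and 0.10 and ran from the OE + EpEX level to above mESCs. The difference of OE + EpEX from mESCs was -0.84 ± 0.21 (adjusted p = 0.015), and -0.86 ± 0.21 by 1449502_at (adjusted p = 0.0132). Against OSKM the values were -0.72 ± 0.20 and -0.73 ± 0.20 (adjusted p = 0.0823 and 0.0786), which did not pass. Mael, Piwil2 and Sycp3 did not pass against mESCs in any group. Of 21 other germline and piRNA genes listed, 9 had a named probe set. Gtsf1, a piRNA pathway factor, was lower than in mESCs in the 3 iPSC groups (-0.80 ± 0.16, -0.96 ± 0.16 and -0.66 ± 0.16, adjusted p = 0.000757 to 0.00986), Slc25a31 was lower in OE + EpEX (-0.77 ± 0.23, adjusted p = 0.036), and Dppa3 was higher in KE + EpEX as given above. The other 6 did not pass.

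Of the 18 transcription factor probe sets, 4, of as many genes, passed against mESCs in at least 1 group (22.2%, against 24.2% of all probe sets), each by less than 2-fold. Klf5 was lower in OE + EpEX and KE + EpEX (-0.53 ± 0.14 and -0.62 ± 0.14, adjusted p = 0.0165 and 0.00524). Tbx3 was higher by 1448029_at in KE + EpEX and OSKM (0.48 ± 0.13 and 0.57 ± 0.13, adjusted p = 0.0221 and 0.00748), and its other probe set did not pass. Mybl2, a cell cycle regulator, was lower in OSKM by 1454946_at (-0.65 ± 0.20, adjusted p = 0.0402), again by 1 of 2 probe sets. Zfp462 was higher in OSKM by 1439106_at (0.38 ± 0.12, adjusted p = 0.0445) and did not pass by 1456789_at. Zic2, Zic5, Foxh1, Mycn, Tcfl5, Zfp264, Zfp936 and Zfp961 did not pass in any group. Zfp264 read 0.00, 0.00 and 0.07 in mESCs, -0.22, 0.13, 0.13 and -0.04 in OE + EpEX, -0.21, -0.15, 0.11 and 0.35 in KE + EpEX, and 0.29, 0.12, 0.24 and -0.02 in OSKM.

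For comparison, 11 pluripotency factors that are not members all had a named probe set. Of these, the rule had left out Pou5f1, Sox2 and Zfp42, although they match a prefix. Pou5f1, Zfp42 and Nr5a2 were called lower than in mESCs in each iPSC group, Pou5f1 with log2 differences of -5.22 to -5.75, and Lin28a in KE + EpEX (-1.37 ± 0.25, adjusted p = 0.00155). Tfcp2l1 was higher by less than 2-fold in OE + EpEX and KE + EpEX, and Sall4 in OSKM. No member was as far from mESCs as Pou5f1.

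Markers of fibroblasts, which include feeder cells, differed among the EpEX clones. The median of 16 probe sets of 12 fibroblast genes was 1.56 in KE + EpEX 1, 0.83 in OE + EpEX 4 and 0.57 in KE + EpEX 2, against -0.62 to 0.23 in the other pluripotent arrays and 5.12 to 5.90 in MEFs. These 3 clones, and KE + EpEX 4 with a median of -0.62, were the 4 lowest iPSC clones for Dnmt3b and Dnmt3l. The part of such cells in these values was not tested. With the 3 clones left out, an alternative chosen after seeing the data, OSKM had 6 called members against mESCs, OE + EpEX 5 and KE + EpEX 3, the same numbers as with them. Of all 45037 probe sets, 869 were then called higher and 872 lower in OSKM, 882 and 573 in OE + EpEX and 751 and 679 in KE + EpEX. Between the EpEX groups both Dazl probe sets were then called, lower in OE + EpEX at -1.02 and -1.01 (adjusted p = 0.0283 and 0.0192). That comparison left KE + EpEX with clones 3 and 4 alone, at 0.74 and 0.10 by 1419542_at. KE + EpEX 3 was the highest pluripotent array for this probe set, so the call leans on that clone. Among all probe sets, 76 were called higher and 14 lower in that comparison, against 0 with the 3 clones kept.

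**Figure D4:**
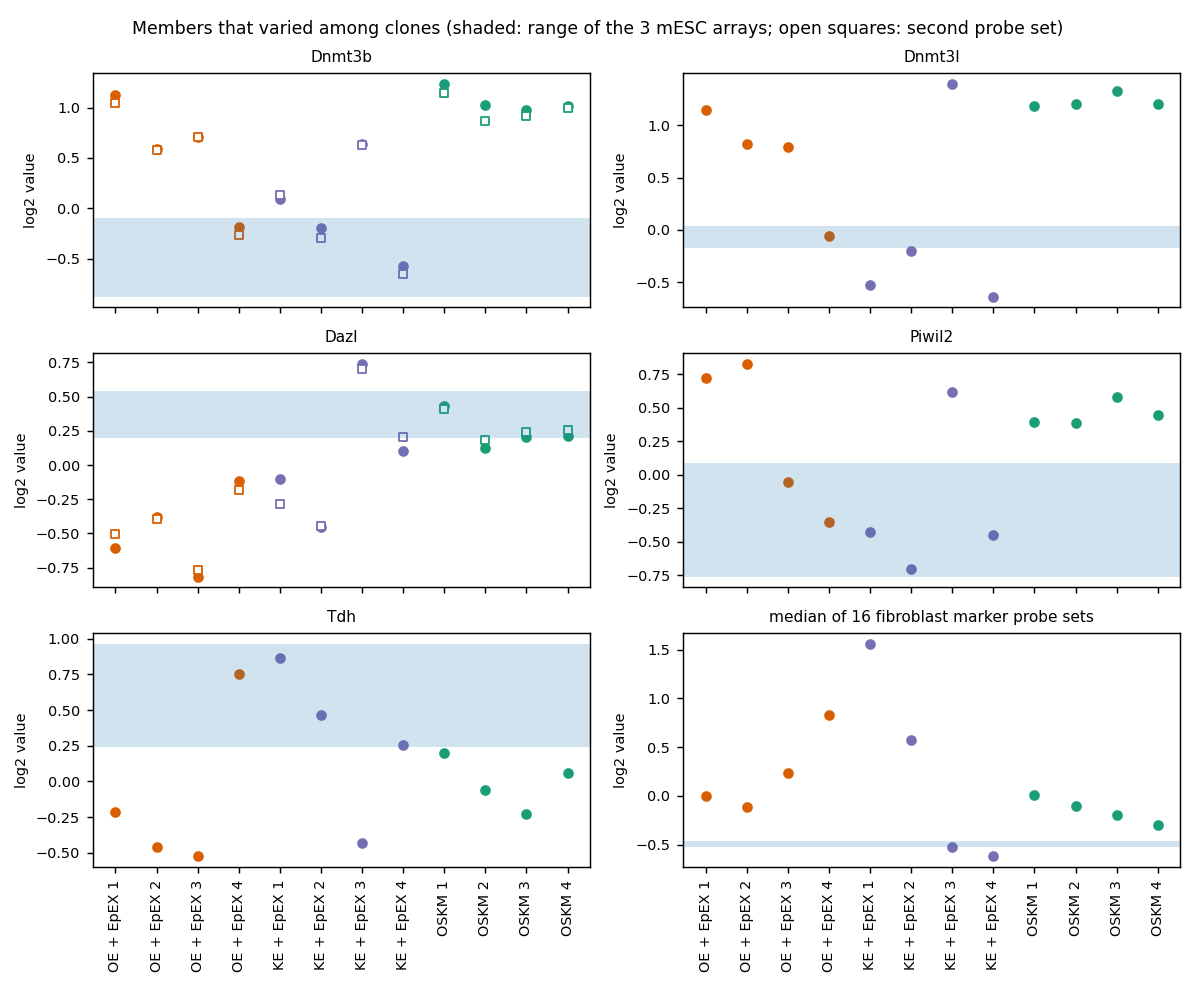
Members that varied among clones. Points are log2 values of the 12 iPSC clones, open squares the other probe set, and shading the range of the 3 mESC arrays. The last panel gives the median of 16 fibroblast marker probe sets. Dnmt3b and Dnmt3l are lowest in OE + EpEX 4 and KE + EpEX 1, 2 and 4, and Tdh is highest there.

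The clones of the EpEX groups differed from one another more than those of OSKM. The median SD of the 46 probe sets was 0.264 in OE + EpEX and 0.296 in KE + EpEX, against 0.113 in OSKM and 0.162 in mESCs. Over all probe sets the corresponding medians were 0.148, 0.168, 0.115 and 0.140. For the 431 other probe sets of the list they were 0.198, 0.234, 0.079 and 0.110. The wider spread of the EpEX groups was thus not particular to the members. KE + EpEX had 15 members with an SD over 0.5 and OE + EpEX had 10, while OSKM and mESCs had 0. These counts were not made over all probe sets. The difference in SD between groups was not tested. Single clones stood out. KE + EpEX 3 read 1.31 for Sycp3, a protein of the meiotic chromosome axis, while the other KE + EpEX clones read -0.10, 0.12 and 0.04. The same clone was the lowest pluripotent array for Morc1 (-0.71), Mycn (-0.55) and Mybl2 1454946_at (-0.65), and the highest for Dazl. KE + EpEX 4 read 1.20 for Tcl1, a coactivator of the Akt kinase, and 1.00 for Zic2, the highest of the 15 arrays for both. Its Foxh1 value, for the forkhead partner of Nodal signalling, was the lowest at -1.06. Tdh, the threonine dehydrogenase on which mESC metabolism relies, read 0.75 in OE + EpEX 4 and 0.86, 0.46 and 0.26 in KE + EpEX 1, 2 and 4, with -0.21 to -0.53 in the other EpEX clones. Piwil2, a piRNA-binding Argonaute protein, read 0.72, 0.83 and 0.62 in OE + EpEX 1, OE + EpEX 2 and KE + EpEX 3 and -0.06 to -0.70 in the rest of the EpEX clones. These clones and genes were chosen for mention after their values were seen.

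**Figure D5:**
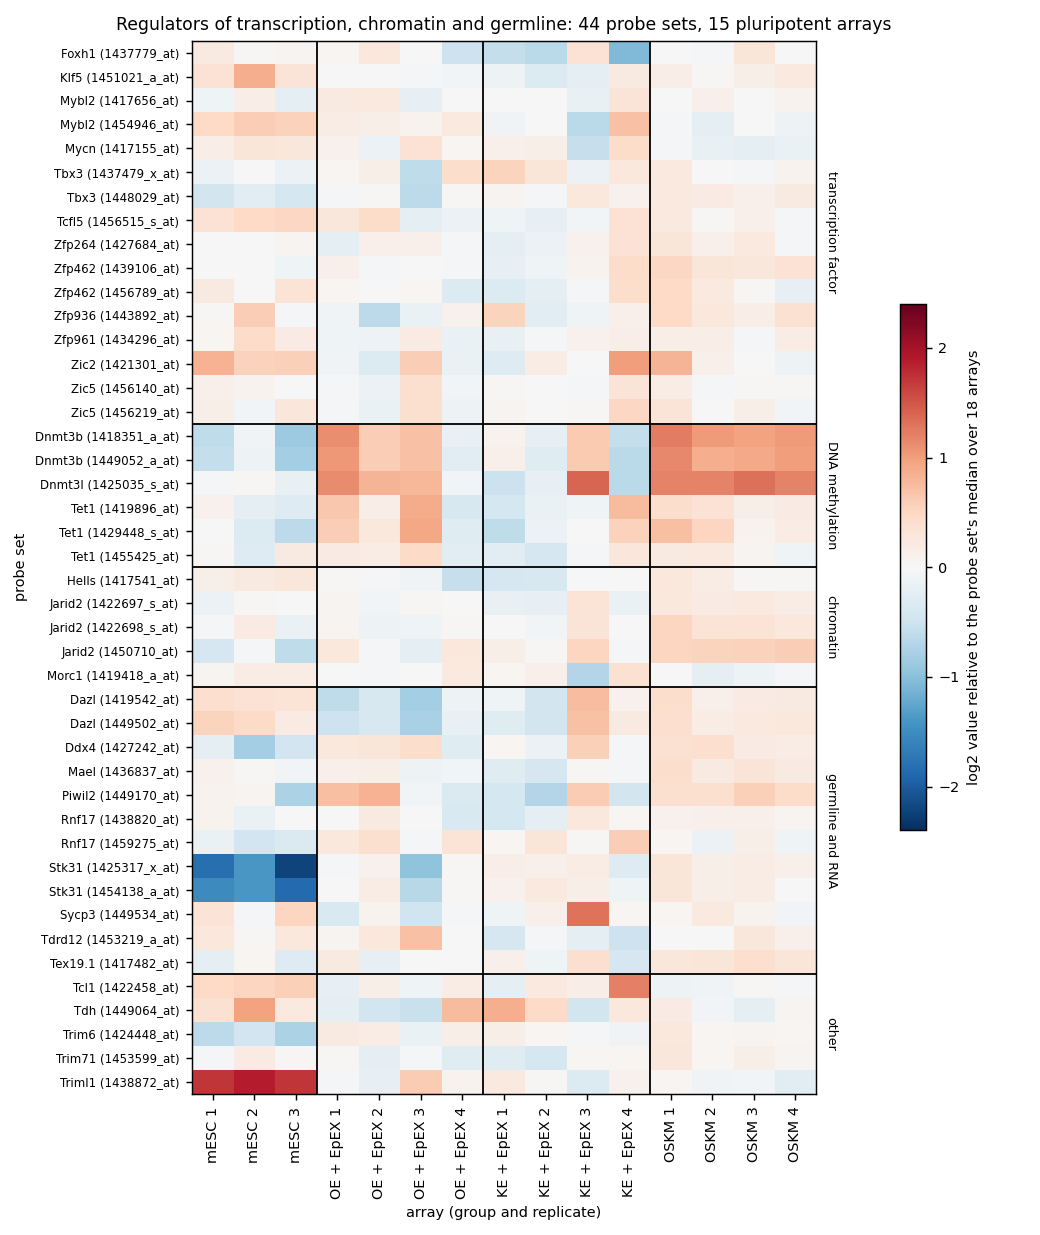
Values of 44 probe sets on the 15 pluripotent arrays. Colour gives the log2 value relative to the median of each probe set, rows are grouped by role and columns by group. Stk31 and Triml1 separate the mESC columns, the OSKM columns are even, and the EpEX clones vary for Dnmt3b, Dnmt3l, Dazl and Piwil2.

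The last question was whether the EpEX groups differed from OSKM iPSCs or from each other. No member was called in OE + EpEX against OSKM (all probe sets, 0.0977%), in KE + EpEX against OSKM (0.00222%) or between the EpEX groups (0%), and no member passed the adjusted p alone (all probe sets, 1.23%, 0.00222% and 0%). At an unadjusted p under 0.05, limma gave 11, 16 and 5 of 46 members (all probe sets, 16.5%, 12% and 8.27%). The methods' t-test, unadjusted and with the 2-fold limit, called 4 members for KE + EpEX against OSKM (all probe sets, 0.291%), 0 for OE + EpEX against OSKM (0.311%) and 0 between the EpEX groups (0.0244%). The median member difference was -0.16 for OE + EpEX (all probe sets, -0.02) and -0.19 for KE + EpEX against OSKM (0.00), and 0.02 between the EpEX groups (-0.02).

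Dnmt3b and Dnmt3l varied among the KE + EpEX clones. KE + EpEX was below OSKM by 1.07 ± 0.27 and 1.02 ± 0.27 for Dnmt3b (adjusted p = 0.142 and 0.162) and by 1.22 ± 0.35 for Dnmt3l (adjusted p = 0.181). Without KE + EpEX 3, Dnmt3b and Dnmt3l were called lower than in OSKM, at -1.29, -1.25 and -1.68 (adjusted p = 0.0155, 0.0179 and 0.00242). Of all 45037 probe sets, 94 were then called higher and 153 lower, against 0 and 1 with that clone, so the rise was not particular to these genes. Dnmt3b and Dnmt3l were also called after quantile normalization (-1.80, -1.63 and -1.95, adjusted p = 0.00718, 0.0125 and 0.0259). That scaling gave 88 higher and 149 lower calls among all probe sets. It widens the OSKM arrays, whose spread over all probe sets was narrow (SD 0.193 to 0.222), so it is not independent support. For OE + EpEX against OSKM the same normalization moved Dnmt3b 1418351_a_at from -0.50 to -1.14, which was called (adjusted p = 0.0241), and Dnmt3l from -0.55 to -1.26, which was not. Among all probe sets it gave 178 higher and 206 lower calls there, against 14 and 30 without it. Mael, which acts in the piRNA pathway, read -0.30, -0.41, 0.02 and -0.02 in KE + EpEX and 0.42, 0.22, 0.32 and 0.22 in OSKM, without overlap. Its difference of -0.47 ± 0.10 had the lowest adjusted p of this comparison among the members (0.112) and did not pass.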

How the data were processed

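The authors processed the arrays in GeneSpring GX and deposited log2 values. The submitters' processing notes name MAS5 and RMA without their role. The deposited log2 values had been centred, with the median of each probe set over the 18 arrays within 5e-07 of 0, so detection is unknown. The deposited lists of higher and lower probe sets gave the gene symbols. Their 15 columns of the authors' fold changes against MEFs, and 16 of normalized values, in each list were not used.

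After leaving out 64 control probe sets, the fit covered 45037 on the 15 pluripotent arrays, with 1 mean per group (limma 3.58.1 under R 4.3.3, default lmFit, then eBayes), with Benjamini-Hochberg adjustment over all probe sets within each of 7 comparisons. MEFs were left out since they chose the members. The fit was tested on simulated data and recovered 98.5% of 200 changed probe sets (log2 change 2) for OE + EpEX against mESCs. The other pairs of groups gave 97% to 99.5%. The simulated error of a probe set was equal in every group, so smaller changes and unequal spreads were not covered. Groups came from the sample labels. The members, roles and gene lists were chosen with earlier results of these data known. Values on every array were planned for called members and for the highest and lowest above MEFs in each role. The other members given with single-array values (among them Tcfl5, Zfp462, Mael, Piwil2, Sycp3, Tdh and the other probe set of Dazl) were chosen after their values were seen. One gene is not reported here, but is in the counts over the members. Promoters were matched by symbol to RefSeq. Alternatives were other thresholds, scalings, fits and omitted arrays. The study describes the mESC and iPSC samples as different clones, so p-values measure the spread between clones, and the number of arrays limits the precision. Figures were drawn with matplotlib 3.10.9 in Python 3.11.15.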

Additional observations from a re-analysis of the deposited data

Results flagged for a closer look

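In 138 groups of 4 clones (46 probe sets in 3 iPSC groups), 12 had 1 clone far from the others by Dixon's test, where chance gives about 1 in 20, or 6.9. That figure holds for normal values. The 138 groups are not independent, since the same clones and several probe sets of 1 gene recur. The count was not made over all probe sets, so it says nothing particular to the members. In OE + EpEX 3, Stk31 1425317_x_at was at -0.97 (others -0.03 to 0.09), Tbx3 1448029_at at -0.62 (-0.04 to 0.03) and Zfp961 at 0.20 (-0.15 to -0.11). In OE + EpEX 4, Zfp462 1456789_at was at -0.32 (0.00 to 0.05). In KE + EpEX 3, Sycp3 was at 1.31 (-0.10 to 0.12) and Jarid2 1422697_s_at at 0.34 (-0.19 to -0.16). In KE + EpEX 4, Stk31 1425317_x_at was at -0.31 (0.13 to 0.18) and Zic5 1456219_at at 0.50 (-0.01 to 0.07). In OSKM 3, Dnmt3l was at 1.33 (1.18 to 1.20), Foxh1 at 0.30 (-0.04 to 0.02) and Zfp961 at -0.0522 (0.16 to 0.19). In OSKM 1, Trim6 was at 0.25 (0.04 to 0.06).

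Mael lay below the mESC mean in each KE + EpEX clone and above it in each OSKM clone. However, KE + EpEX 3 and 4, at 0.02 and -0.02, were within the mESC range of -0.06 to 0.11. The KE + EpEX mean was 0.20 log2 units below the mESC mean (-0.20) and the OSKM mean 0.27 above it, -0.47 apart. This difference in direction was not tested beyond the comparison of the 2 groups, which did not pass.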

How the results depend on the processing

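Of 500 values of the 18 called differences under the alternatives, 470 stayed called, 30 lost the call and 0 changed sign, and 11 of the 18 were called in every one. Part of this was fixed in advance. The looser fold limits used the same fit and could not lose a call. Leaving out an array of a group not compared could change the p-value but not the difference. The 470 are therefore not a measure of robustness. The number of called members moved by more than 1.5 times in the following cases. With a 1.5-fold limit it was 8, 9, 6 and 10 against mESCs in the iPSC mean, OE + EpEX, KE + EpEX and OSKM (all probe sets, 9.13%, 8.12%, 9.52% and 9.72%). With no fold limit it was 12, 11, 10 and 14 (all probe sets, 20.2%, 14.2%, 16.7% and 17%). With 1 probe set per gene it was 2 for the iPSC mean and 3 for OE + EpEX. For OE + EpEX it was 3 at an adjusted p under 0.01, 1 after quantile normalization and 1 by the methods' t-test, adjusted. Among all 45037 probe sets these settings called 761 higher and 532 lower, 306 and 239, and 400 and 314. After quantile normalization, 1 member (Dnmt3b) was called for OE + EpEX and 3 for KE + EpEX against OSKM, and by the methods' t-test, unadjusted, 4 for the latter. Among all probe sets the calls were 178 higher and 206 lower, 88 and 149, and for the t-test 46 and 85. Without the 3 clones highest in fibroblast markers, chosen after seeing the data, 2 were called between the EpEX groups. They were the Dazl probe sets of 1 gene, lower in OE + EpEX at -1.02 and -1.01 (adjusted p = 0.0283 and 0.0192). KE + EpEX then held clones 3 and 4 alone. Of all 45037 probe sets, 76 were then called higher and 14 lower, against 0 with those clones.

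Leaving out each array in turn gave 3 to 5 called members against mESCs in the iPSC mean, OE + EpEX and KE + EpEX alike, 5 to 6 in OSKM, 0 to 3 for KE + EpEX against OSKM and 0 for the other pairs. The count for OE + EpEX was 3 without mESC 1, mESC 3 or OE + EpEX 1 (all probe sets, 845 higher and 501 lower, 796 and 594, and 828 and 572). That for KE + EpEX was 5 without OE + EpEX 4 or KE + EpEX 4 (all probe sets, 919 higher and 874 lower, and 1068 and 1127). The 3 calls against OSKM came without KE + EpEX 3, where 94 of all probe sets were called higher and 153 lower. The median difference of the members ranged from -0.071 to -0.0093 for OE + EpEX against mESCs when arrays were left out. Without 1 MEF array, 40 to 46 members stayed 10-fold above MEFs on each array, as did 414 to 463 of the 477 listed probe sets. Same-numbered arrays of different groups did not deviate together (median correlation 0.00 over 21 pairs, 2 over 0.1). Differently numbered arrays had a median of -0.0008 over 63 pairs, with 12 over 0.1 and a highest correlation of 0.46. Some arrays of different groups thus deviated alike, though not by their number. With the replicate number as a block the called members were 5, 5, 3 and 6 against mESCs and 0 in the other pairs. Symbols that match a prefix by letters only did not occur, and the pooled iPSC comparison has no fit with only the groups compared.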
